A study of Mus musculus with 6 samples.

Results

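The 14-3-3 genes encode small acidic adaptor proteins that work as dimers and bind partner proteins at phosphorylated serine or threonine residues. The mouse family has 7 genes, and all 7 were found by symbol among the 55367 rows of the deposited expression table: Ywhaz, Ywhae, Ywhag, Ywhah, Ywhab, Ywhaq and Sfn. The study profiled RNA by Smart-seq2, which copies whole transcripts, in 6 libraries of tdTomato+ neurons sorted from the dentate gyrus, the input region of the hippocampus, of TRAP2;Ai9 mice. In these mice a tamoxifen-inducible Cre recombinase under control of the activity gene Fos switches on the red protein tdTomato for good in cells that are active while the drug is present. Every library came from mice taken through the learned helplessness paradigm, in which stress that cannot be controlled leads animals to stop escaping. The LH+ NR group of 3 libraries (NR) had no running, and the LH+ Run group of 3 libraries (Run) ran voluntarily for 28 days. Mice without the paradigm were not analysed here, and the labels tell neither age nor sex nor how many animals or cells went into a library. The spread that the p-values measure is that between libraries, and it may be technical.

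Binding of a 14-3-3 dimer can hide a nuclear import signal, hold an enzyme in an inactive shape or bring a pair of proteins together, and so links protein kinases such as AKT, PKA and AMPK to their effects. The proteins are among the most abundant soluble proteins of brain, where they are known for roles in neuronal migration, transmitter synthesis and ion channel traffic. Their presence in cerebrospinal fluid is used as a sign of neuronal damage. Each gene encodes 1 isoform, named with a Greek letter: zeta (Ywhaz), epsilon (Ywhae), gamma (Ywhag), eta (Ywhah), beta (Ywhab), theta (Ywhaq) and sigma (Sfn).

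The coding sequences of the 7 genes are related but not interchangeable. Including the stop codon they were 738 to 768 bases long, and any pair was identical at 60% to 78.7% of aligned bases, the closest pair being Ywhag and Ywhah. No stretch of 50 bases occurred in the coding sequences of more than 1 member. The most conserved window of 60 bases lying within 1 exon in every gene is shown because it displays how much sequence separates the members even where they are most alike, with 35 of 60 positions identical in all 7. Capitals mark bases that differ from Ywhaz.
Ywhaz: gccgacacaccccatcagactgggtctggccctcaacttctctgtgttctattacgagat
Ywhae: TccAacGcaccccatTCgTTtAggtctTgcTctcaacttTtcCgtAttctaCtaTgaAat
Ywhag: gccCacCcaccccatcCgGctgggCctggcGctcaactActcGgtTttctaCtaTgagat
Ywhah: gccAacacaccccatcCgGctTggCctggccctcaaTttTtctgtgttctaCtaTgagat
Ywhab: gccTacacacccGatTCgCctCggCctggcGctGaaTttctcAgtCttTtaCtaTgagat
Ywhaq: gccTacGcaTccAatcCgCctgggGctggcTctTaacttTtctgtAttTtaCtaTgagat
Sfn: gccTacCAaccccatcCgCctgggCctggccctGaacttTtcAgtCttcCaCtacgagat
On mm10 these windows lie in Ywhaz (chr15:36775456-36775515, minus strand), Ywhae (chr11:75756937-75756996, plus strand), Ywhag (chr5:135911182-135911241, minus strand), Ywhah (chr5:33026952-33027011, plus strand), Ywhab (chr2:164015295-164015354, plus strand), Ywhaq (chr12:21396322-21396381, minus strand) and Sfn (chr4:133601222-133601281, minus strand). Ywhah differed from Ywhaz at 9 positions of the window and Ywhae at 16.

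The libraries were noisy at the level of single genes. In all, 83.1% of values were listed at 0, between 5426 and 7355 genes per library had an FPKM of at least 1 (a fragment count corrected for the length of the transcript and the size of the library), and 1751 genes reached it in all 6. The FPKM summed over all genes ranged from 473786 to 492021 per library, and read depth is unknown. Markers of the labelled cells were uneven: of 6 granule neuron markers none reached FPKM 1 in all libraries, Tdo2 was listed at 0 in all 6, and their sum ranged from 0.285 to 132.9 FPKM in NR and from 21.5 to 159.9 in Run. The sum of 8 general neuronal markers ranged from 343.5 to 808 in NR and from 550 to 939 in Run, and 4 of them reached FPKM 1 in all libraries. The sum of 8 astrocyte markers was higher, 2468 to 4647 in NR and 2648 to 5257 in Run. Aldoc alone, 1 of these 8, had a mean of 1864 FPKM. Sums over different genes do not measure the share of each cell type, and the mix of cells was not tested. In these libraries, fewer cells of a type and less RNA per cell cannot be told apart.

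Of the 7 members, 6 were expressed, 5 of them at FPKM 1 or more in every library, while Sfn was listed at 0 throughout. Ywhae and Ywhaz were the highest, with means of 361 ± 59.6 and 328 ± 89.6 FPKM (SD, n = 6), followed by Ywhaq at 233 ± 82.9 and Ywhah at 219 ± 165. Ywhab had 86.7 ± 75.8 and Ywhag 58.3 ± 33.0. Among all genes of the table, Ywhae ranked 152nd and Ywhaz 172nd by mean FPKM. FPKM is scaled by transcript length, so levels of different genes can be set side by side, apart from reads assigned to pseudogene copies elsewhere in the genome. Rows of such copies held up to 10%, 4.85% and 29.2% of the FPKM of Ywhaz, Ywhah and Ywhaq. FPKM is per length, so these are not shares of reads. Comparisons with these members are uncertain to an unknown extent. In the same libraries, Ywhae was above Ywhag in 6 of 6, by 2.81 ± 1.07 on the log2(FPKM + 1) scale (mean difference ± SD), and Ywhaz was above Ywhag in 6 of 6 by 2.64 ± 1.17. Ywhaq was above Ywhag in 6 of 6 by 2.12 ± 0.45, and Ywhah was above Ywhab in 6 of 6 by 2.1 ± 2.64. By a 2-sided exact sign-flip permutation test over the 6 libraries, 6 of the 15 pairs of expressed members had the smallest p that the test allows (0.03125), and none passed after adjustment over the 15 pairs (adjusted p = 0.0781). Of the 5 pairs of neighbours in the order, only Ywhah and Ywhab reached that smallest p: the exact p was 0.344 for Ywhae and Ywhaz, 0.219 for Ywhaz and Ywhaq, 0.688 for Ywhaq and Ywhah, and 0.812 for Ywhab and Ywhag.

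**Figure D1:**
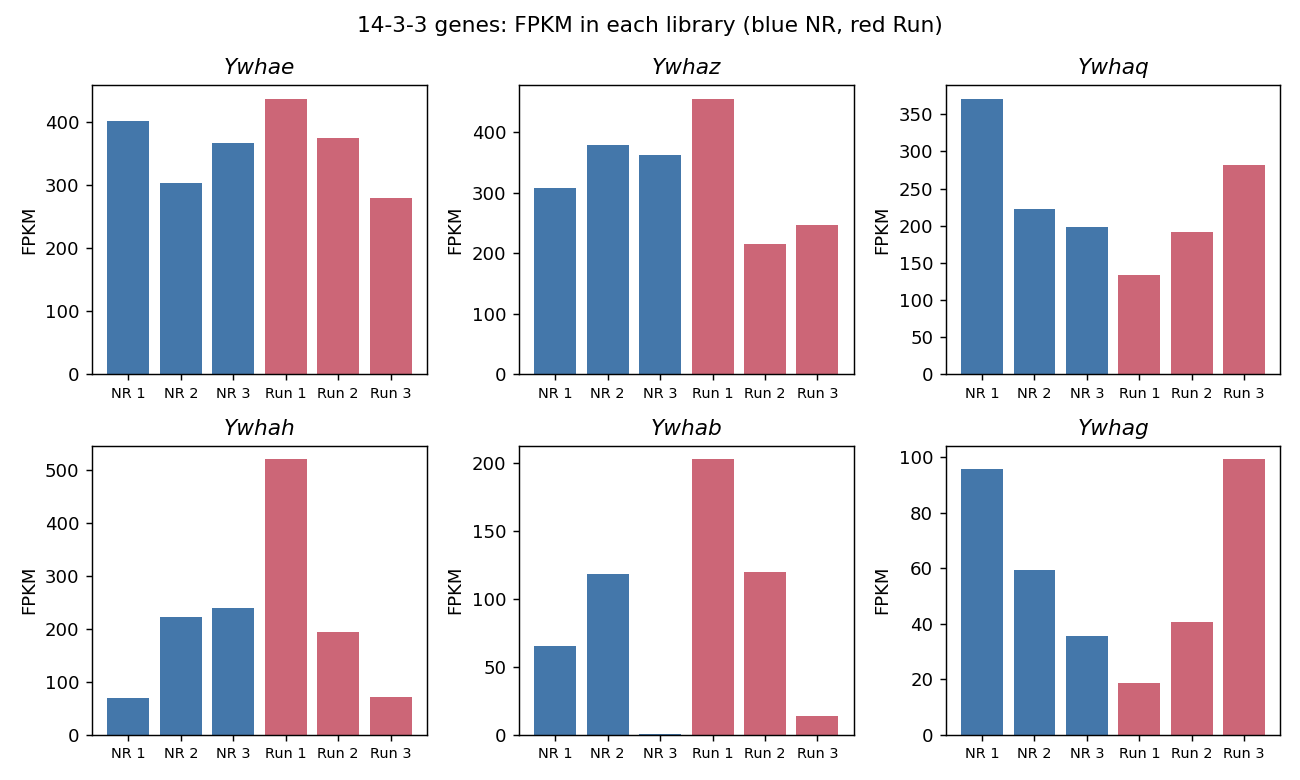
FPKM (vertical axes, linear from 0, a separate scale for each gene) of the 6 expressed 14-3-3 genes in each library, NR in blue and Run in red. Ywhae stays between 279 and 437, whereas Ywhah runs from 69.8 to 519 and Ywhab from 0.559 to 203.

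Ywhae, the epsilon isoform, is required for neuronal migration and keeps the motor regulator NDEL1 phosphorylated. It had 403, 303 and 367 FPKM in replicates 1, 2 and 3 of NR, against 437, 374 and 279 in those of Run, the order used throughout. It was the steadiest member, its highest library being 1.57 times its lowest, and the groups overlapped. The means were 358 ± 50.3 without running and 364 ± 79.6 with running (SD, n = 3 each), a difference (Run minus NR) of 0.01 ± 0.35 (SE) on the log2(FPKM + 1) scale. Its SD within groups, 0.274 log2 units, was larger than that of only 5.17% of the 174 genes with a mean within 1.5-fold of its own, whose median was 0.629.

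Ywhaz, the zeta isoform, binds RAF kinases, the death promoter BAD and many other partners. It had 307, 380 and 363 FPKM in the NR libraries against 456, 215 and 246 in the Run libraries. Run held both the highest library and the lowest 2, so the NR values lay inside the range of Run. The means were 350 ± 37.9 without running and 305 ± 131 with running, a difference of -0.27 ± 0.41 (SE). With the SD within groups at 0.423 log2 units, against a median of 0.656 for 198 genes of like abundance, the SD of Ywhaz exceeded that of 21.7% of them.

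Ywhab, the beta isoform, is closely related to zeta in sequence and also binds RAF kinases. It was the most uneven member, at 65.3, 118 and 0.559 FPKM in the NR libraries against 203, 120 and 13.7 in the Run libraries. NR replicate 3 and Run replicate 3 stood far below the other libraries, and the groups overlapped. The difference was 1.63 ± 1.86 (SE) on the log2(FPKM + 1) scale, the largest of the family and smaller than its own error. With libraries of the same number treated as pairs, the SE was 1.03, below the difference (limma adjusted p = 0.954). Without NR replicate 3 the difference was -0.32, so its sign rested on that library.

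Ywhah, the eta isoform, is known as a brain-enriched activator of the enzymes that make dopamine and serotonin. It had 69.8, 222 and 240 FPKM in the NR libraries against 519, 193 and 71.4 in the Run libraries. Run replicate 1 was the highest, and the low values of NR replicate 1 and Run replicate 3 were nearly equal. The means were 177 ± 93.5 without running and 261 ± 232 with running, a difference of 0.31 ± 0.86 (SE). Its SD within groups of 1.23 log2 units was larger than that of 82.7% of the 284 genes of like abundance. Without NR replicate 1 the difference was -0.26, and without Run replicate 1 it was -0.40.

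Ywhag, the gamma isoform, is known from brain and muscle, and mutations of the human gene cause an epileptic disorder of development. It had 95.8, 59.5 and 35.8 FPKM in the NR libraries against 18.9, 40.7 and 99.2 in the Run libraries. The highest and the lowest library were both in Run. The means were 63.7 ± 30.2 and 52.9 ± 41.6, a difference of -0.46 ± 0.87 (SE), which became 0.11 without Run replicate 1.

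Ywhaq, the theta isoform, was first described in T cells and is widely expressed in brain. It had 371, 222 and 198 FPKM in the NR libraries against 134, 191 and 282 in the Run libraries. NR replicate 1 was the highest and Run replicate 1 the lowest, and the groups overlapped. The means were 264 ± 93.6 and 202 ± 74.6, a difference of -0.39 ± 0.48 (SE). It had a negative difference under every one of the 16 alternatives computed, from -0.66 to -0.12. Sfn, the sigma isoform of epithelia and a target of p53, was listed at 0 in all 6 libraries and was not tested. An exact 0 in such a table can be a failed estimate, so the value does not show that the gene is silent.

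The comparison of Run with NR asked whether expression in these cells differed between runners and non-runners. None of the 14-3-3 genes passed the test. By limma with Benjamini-Hochberg adjustment over the 6155 tested genes, 0 of the 6 tested members reached an adjusted p under 0.05, where 0 genes in all (0.0%) did. Their adjusted p-values lay between 0.978 (Ywhab, Ywhaq and Ywhaz) and 0.997 (Ywhae) in that limma fit. At an unadjusted p under 0.05 there were again 0 of 6 members, beside 4.94% of all tested genes, and the smallest unadjusted p of a member was 0.411, for Ywhab. Non-overlapping groups were found for 0 of 6 members, beside 8.95% of tested genes (4.76% with Run higher and 4.19% with Run lower). Of the 6, 3 had positive and 3 negative differences, with a median of -0.13 against -0.03 over all tested genes. The 95% intervals show what the data could not distinguish: from -0.81 to 0.83 for Ywhae and from -1.25 to 0.70 for Ywhaz, but from -2.77 to 6.02 for Ywhab. With intervals of this width, the p-values do not show that the levels were alike in the groups.

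**Figure D2:**
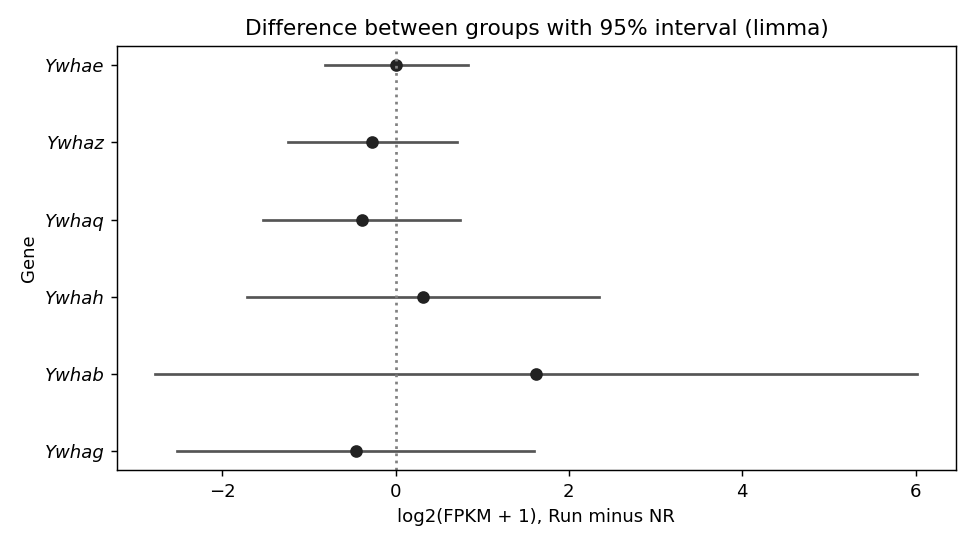
Difference between groups (points, Run minus NR, in units of log2(FPKM + 1), horizontal axis) with its 95% interval from limma (lines) for the 6 expressed 14-3-3 genes. Every interval includes 0, and that of Ywhab, from -2.77 to 6.02, is the widest.

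Summed over the family, the 14-3-3 genes had 1312, 1305 and 1204 FPKM in the NR libraries against 1768, 1135 and 991 in the Run libraries. The NR libraries lay close together and Run replicate 1 stood above all others. The means were 1274 ± 60.3 without running and 1298 ± 413 with running (SD, n = 3 each), and without Run replicate 1 the difference between the means moved from 24.2 to -210.8 FPKM. The family made up 0.201% to 0.372% of the FPKM of a library. Ywhaz held 18.9% to 30.1% of the family sum and Ywhae 23.2% to 33.0%. The shares of others varied more: Ywhah was 5.32% of the sum in NR replicate 1 and 29.4% in Run replicate 1, and Ywhaq was 28.3% and 7.57% in the same libraries.

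**Figure D3:**
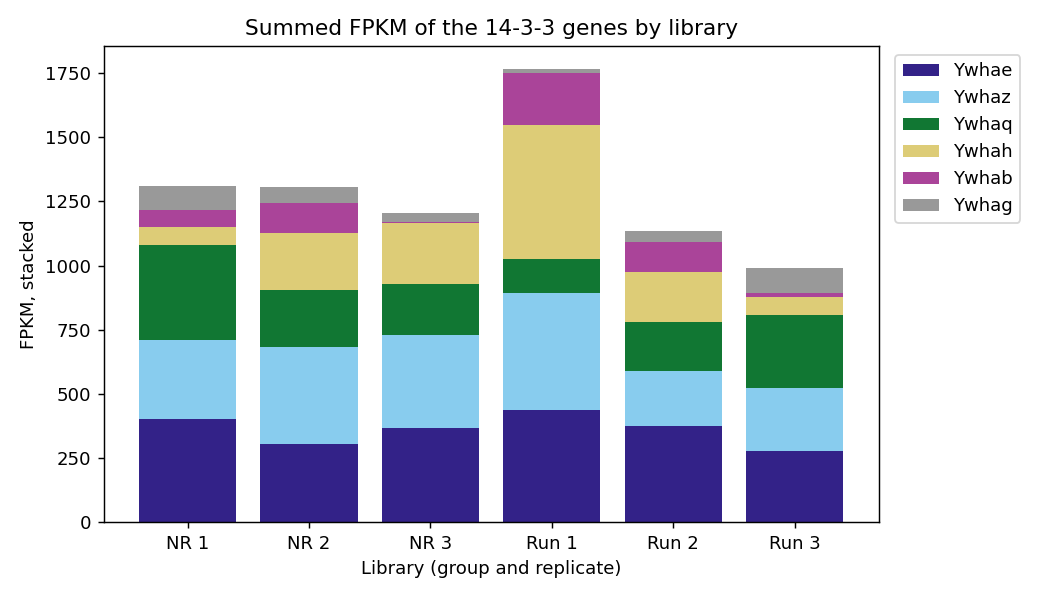
FPKM of the 6 expressed 14-3-3 genes stacked by library (vertical axis, linear from 0). The sums run from 991 in Run replicate 3 to 1768 in Run replicate 1, where Ywhah alone holds 29.4%.

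The members fell into different patterns across the libraries, and these did not follow the groups. Ywhag and Ywhaq were both high in NR replicate 1 and Run replicate 3 and lowest in Run replicate 1, while Ywhah was the reverse. Over the 6 libraries, Ywhaq and Ywhag had a Pearson r of 0.951 (exact permutation p = 0.00556) and a Spearman rho of 0.886 (p = 0.0333). Ywhah and Ywhag had r = -0.957 (exact permutation p = 0.00833) and rho = -0.886 (p = 0.0333), and Ywhaq and Ywhah had r = -0.95 (p = 0.00972) and rho = -0.829 (p = 0.0583). All 15 pairs were computed after the opposed values had been noticed in the same libraries, so their p-values are a description and not a test. After adjustment over the 15 pairs, these 3 pairs had an adjusted permutation p = 0.0486 by Pearson and 0.25, 0.25 and 0.292 by Spearman. No other pair had an unadjusted exact p under 0.05. Without the 2 libraries farthest from the median of the first gene, r was 0.973 for Ywhaq and Ywhag, -0.879 for Ywhah and Ywhag and -0.896 for Ywhaq and Ywhah, each over 4 libraries. Those 4 still held Run replicate 1 for Ywhah and Ywhag, and Run replicate 3 for the pairs with Ywhaq. Both are among the libraries with the opposed values, so these r do not show that the relation holds without such libraries.

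The sums of the general neuronal and granule neuron markers were lowest and highest in the same libraries as Ywhah, and that of the inhibitory neuron markers was not. The sum of the 8 neuronal markers was 343.5, 595 and 808 FPKM in the NR libraries against 939, 591 and 550 in the Run libraries. The 6 granule neuron markers summed to 0.285, 132.9 and 29.1 in the NR libraries against 159.9, 102 and 21.5 in the Run libraries. The 6 inhibitory neuron markers, of which Slc32a1, Sst and Pvalb were listed at 0 throughout, summed to 43.4, 1.41 and 31.9 in the NR libraries against 66.3, 23.7 and 155.9 in the Run libraries, lowest in NR replicate 2 and highest in Run replicate 3. The 8 astrocyte markers summed to 4647, 2468 and 3787 in the NR libraries against 2779, 5257 and 2648 in the Run libraries, a different order. Mural cell markers were highest in NR replicate 1, at 1438 FPKM against 236 to 743 in the other libraries. The part of any of these in the members' values was not tested.

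**Figure D4:**
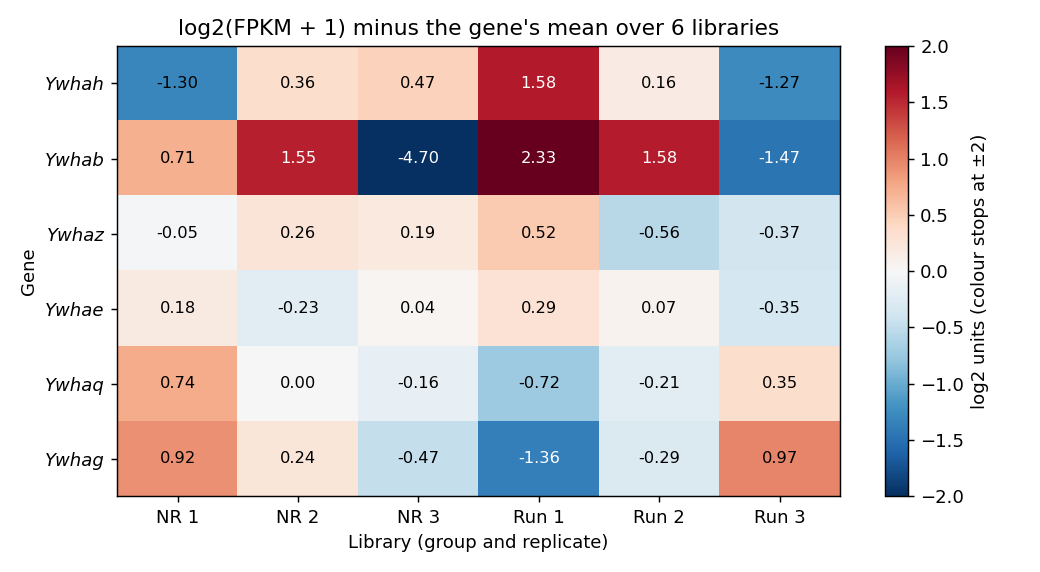
Each gene's log2(FPKM + 1) in a library minus its mean over the 6 libraries (numbers in the cells, colour scale stopping at ±2), for the 6 expressed 14-3-3 genes. Ywhag and Ywhaq are above their means in NR replicate 1 and Run replicate 3, where Ywhah is at -1.30 and -1.27.

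The upstream sequences of Ywhah and Ywhag are shown because these genes had opposed values and are the closest pair in coding sequence. Both lie on the same chromosome. Of the members, 5 had an entry in the RefSeq promoter table of GRCm38.p6. Both strands of the 250 bases before the start were searched for the cAMP response element TGACGTCA, the site bound by the activity-dependent factor CREB, and for its half-site TGACG, which the full element contains on each strand. Capitals mark the matches.
Ywhah promoter: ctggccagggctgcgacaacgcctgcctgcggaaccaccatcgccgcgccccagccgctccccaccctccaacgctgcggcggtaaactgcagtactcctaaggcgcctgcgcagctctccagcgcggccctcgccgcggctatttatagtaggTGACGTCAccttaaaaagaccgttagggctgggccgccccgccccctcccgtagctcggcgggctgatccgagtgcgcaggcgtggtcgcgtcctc
Ywhag promoter: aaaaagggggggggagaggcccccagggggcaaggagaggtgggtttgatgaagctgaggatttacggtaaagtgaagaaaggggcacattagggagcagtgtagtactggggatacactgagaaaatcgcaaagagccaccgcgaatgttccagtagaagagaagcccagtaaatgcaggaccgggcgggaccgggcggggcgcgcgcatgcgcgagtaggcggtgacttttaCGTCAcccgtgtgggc
The first lies at chr5:33018566-33018815 on the plus strand and the second at chr5:135934642-135934891 on the minus strand. Ywhah held the full element, found in 1.62% of 27025 promoters, and Ywhag held 1 half-site on the opposite strand, a match found in 17.9% of them. The windows of Ywhae, Ywhaq and Sfn held neither sequence. For Ywhaq, most of the window (chr12:21417437-21417686, minus strand) lay inside the gene model used for the coding sequence, whose upstream end is at 21417637. Part of the Ywhae window lay inside its gene model too. A match is a description of the letters and not evidence of binding.

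Several members have processed pseudogenes, copies of the messenger RNA inserted elsewhere in the genome. Their rows in the table moved with the parent gene, some more closely than others. Of the 50-base stretches in the coding sequence, 95.4% of those of Ywhaq, 93.5% of those of Ywhaz and 46.1% of those of Ywhah also occurred in annotated transcripts of genes outside the family. For Ywhae, Ywhag and Ywhab the share was 0.0%. Gm4202 (chr3:92689426-92690158), a pseudogene of Ywhaz, was identical to its coding sequence at all 732 aligned bases, alignment gaps not counted. It shared 92.7% of the 50-base stretches of Ywhaz. Gm4202 had 29.4, 37.7 and 33.4 FPKM in the NR libraries against 45.8, 15.8 and 21.3 in the Run libraries. That was between 7.33% and 10% of Ywhaz in every library. Ywhaq has Gm2423 (chr13:13232161-13232893), with 59.3, 35.4 and 20.3 FPKM in the NR libraries against 16.9, 25.8 and 45.4 in the Run libraries, and Ywhaq-ps3 (chr4:70248636-70249373), with 41.5, 24.7 and 10.3 in the NR libraries against 10.9, 15.4 and 28.3 in the Run libraries. Ywhaq-ps3 lies within the gene Cdk5rap2, on the same strand. Both copies were highest in NR replicate 1, as Ywhaq was. Gm2423 had 10.2% to 16.1% of the FPKM of Ywhaq, and Ywhaq-ps3 had 5.21% to 11.2%. Ywhaq-ps3 was lowest in NR replicate 3, whereas Ywhaq and Gm2423 were lowest in Run replicate 1. The 4 pseudogenes that shared at least 60 of the 50-base stretches with Ywhaq together had 16.6% to 29.2% of its FPKM. Of the other rows named after the family, Ywhaq-ps1 was listed at 0 in all libraries and Ywhaq-ps2 had at most 0.587 FPKM.

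Gm12428 (chr3:98821038-98821764) is a pseudogene of Ywhah. It had 2.22, 7.48 and 9.33 FPKM in the NR libraries against 25.2, 8.11 and 2.78 in the Run libraries, between 3.18% and 4.85% of Ywhah in each library. Its sequence of 727 bases differed from the coding sequence of Ywhah, of 741 bases, at 7 of 720 aligned bases, gaps not counted. For this pair and for Ywhaq with Ywhaq-ps3, the 60-base coding windows within 1 exon of the parent that hold the most mismatches are shown. They display how far the copies differ there. Windows with alignment gaps, windows across exon junctions and sequence outside the coding part were not searched. Capitals in the pseudogene mark bases that differ from the parent.
Ywhah: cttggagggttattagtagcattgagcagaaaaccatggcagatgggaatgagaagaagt
Gm12428: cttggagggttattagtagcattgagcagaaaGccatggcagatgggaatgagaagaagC
Ywhaq: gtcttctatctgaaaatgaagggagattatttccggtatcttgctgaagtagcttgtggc
Ywhaq-ps3: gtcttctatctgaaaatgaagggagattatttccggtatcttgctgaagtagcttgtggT
The windows lie on mm10 in Ywhah (chr5:33026630-33026689, plus strand) and Gm12428 (chr3:98821192-98821251, plus strand) and in Ywhaq (chr12:21398254-21398313, minus strand) and Ywhaq-ps3 (chr4:70248969-70249028, minus strand). The first pair differed at 2 of 60 bases and the second at 1 of 60, and the longest identical runs were 193 bases for the first pair and 404 for the second. How the deposited table divided reads between such copies is not stated in the labels. The values of Ywhaz, Ywhah and Ywhaq are therefore uncertain by an unknown amount. With the pseudogene rows added to their parents, the differences between groups were -0.28 for Ywhaz, 0.33 for Ywhah and -0.39 for Ywhaq. These sums are of FPKM, which is per length, and not of reads.

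**Figure D5:**
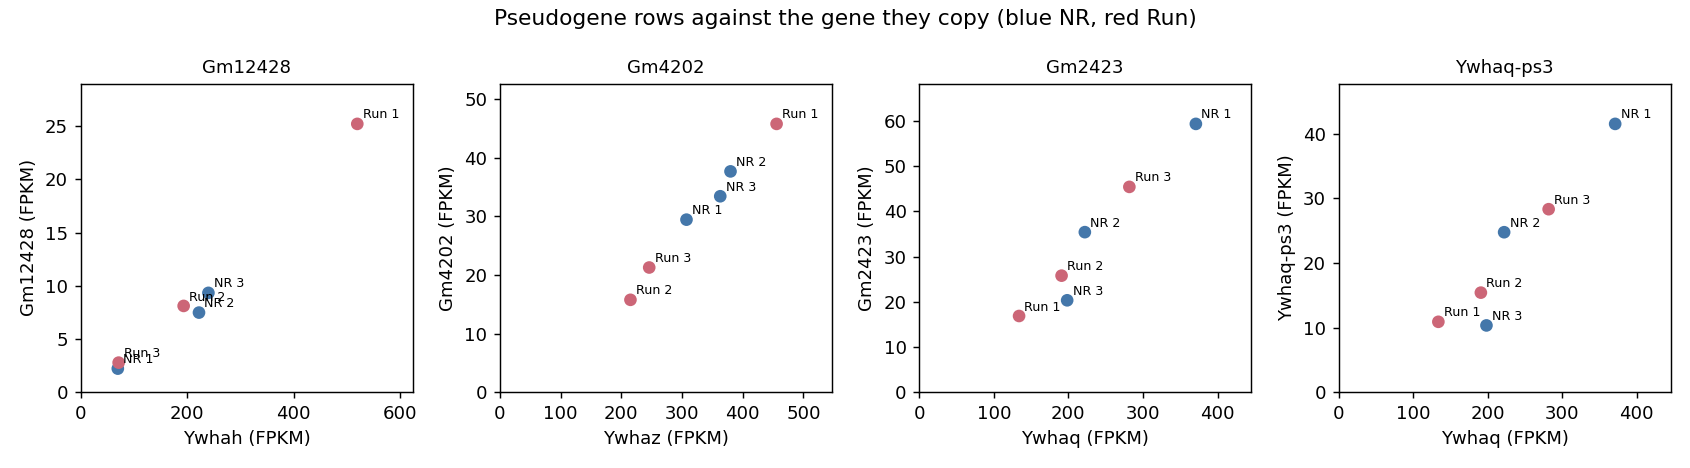
FPKM of a pseudogene row (vertical axes) against FPKM of the gene it copies (horizontal axes) in the 6 libraries, NR in blue and Run in red. In each panel the pseudogene is highest in the library where its parent is highest, Run replicate 1 for Gm12428 and Gm4202 and NR replicate 1 for Gm2423 and Ywhaq-ps3.

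Likeness to other genes was measured as the root-mean-square difference, over the 6 libraries, between log2(FPKM + 1) values centred on each gene's mean, among the 1751 genes that reached FPKM 1 in every library. For Ywhah the nearest of 1750 genes was its own pseudogene Gm12428, at 0.151 log2 units, where the median gene lay at 1.22. For Ywhag it was Lsm3, of a complex that binds U6 RNA, at 0.221, and for Ywhaq it was Sin3b, a corepressor subunit, at 0.128. Ywhaq was the 14th nearest gene to Ywhag and Ywhag the 104th nearest to Ywhaq, at a difference of 0.408. Nearest to Ywhaz was the ribosomal protein pseudogene Rpl17-ps3 (0.0627), and nearest to Ywhae was Rpl30-ps1 (0.139). The genes most like the family sum included Nme1, a nucleoside diphosphate kinase (0.0837), and Rpl30-ps1 (0.13). A gene with no variation at all would lie at 0.371 from Ywhaz, 0.224 from Ywhae and 0.255 from the family sum. Rpl30-ps1 had at most 4.82 FPKM in any library. Nme1 had 73.3, 72.8 and 61.7 FPKM in the NR libraries against 94.3, 62.7 and 61.3 in the Run libraries, highest in Run replicate 1 and lowest in Run replicate 3, as the family sum was.

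A smaller part of the partners of 14-3-3 proteins than of the adaptors themselves passed the filter on low values, FPKM of at least 1 in at least 3 libraries. Of 78 genes in a list of kinases and client proteins, all in the table, 33 passed. Of the members 6 of 7 passed, and of all genes 6155 of 55367. Of these 33, 13 had positive and 20 negative differences (39.4% positive, beside 48.9% of all tested genes). The median of the 33 was -0.17 against -0.03 over all tested genes, and 0 passed the adjusted threshold of limma. At an unadjusted p under 0.05 there were 0 higher and 1 lower in Run, beside 2.45% and 2.49% of all tested genes. The 1 lower gene passed the filter only through the 3 NR libraries, in which it was high, so its call is a description.

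That 1 gene was Sik3, among the 13 tested of 21 kinases that phosphorylate client sites. SIK3 is a salt-inducible kinase that phosphorylates class IIa histone deacetylases and CRTC coactivators, which 14-3-3 then holds in the cytoplasm. It had 26.1, 18.8 and 7.26 FPKM in the NR libraries against 0.0147, 0 and 0.0131 in the Run libraries. A gene admitted by the filter through the NR libraries alone had to be lower in Run and could not overlap, and Sik3 did not pass the adjusted threshold (limma adjusted p = 0.25). Mark2, a kinase of microtubule-associated proteins, had 0, 2.74 and 0 in the NR libraries against 81.6, 9.64 and 0 in the Run libraries. Of the 13 tested kinases, 7 had positive and 6 negative differences.

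Among the RAF kinases and their scaffolds only Araf passed the filter, 1 of 5. ARAF is held inactive by 14-3-3 until it is dephosphorylated. It had 178, 1.2 and 18.4 FPKM in the NR libraries against 168.5, 169.5 and 96.8 in the Run libraries, with overlapping groups. Of 13 transcription regulators held in the cytoplasm 2 passed: Foxo1, a forkhead factor under AKT, had 15.5, 0.00574 and 12.4 in the NR libraries against 8.02, 0 and 0.0105 in the Run libraries, and the deacetylase gene Hdac4 had 30.8, 0 and 0.703 in the NR libraries against 6.20, 18.9 and 8.35 in the Run libraries.

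Of 8 cell death and cell cycle clients 3 passed the filter, all with negative differences, where 48.9% of all tested genes had positive ones. None of the 3 had an unadjusted limma p under 0.05. Cdkn1b, the cell cycle inhibitor p27, had 17.2, 10.7 and 13.1 FPKM in the NR libraries against 8.53, 12.6 and 15.4 in the Run libraries. Cdc25a, a phosphatase that drives the cell cycle, had 23.7, 2.50 and 0.0149 in the NR libraries against 32.6, 0 and 0 in the Run libraries. Of 12 growth and metabolic clients 5 passed, 2 with positive and 3 with negative differences. Akt1s1, which encodes the mTOR inhibitor PRAS40, had 8.69, 22.9 and 20.8 in the NR libraries against 22.2, 43.9 and 0 in the Run libraries, and the insulin receptor substrate gene Irs2 had 0, 2.40 and 1.84 in the NR libraries against 0, 1.85 and 0 in the Run libraries.

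Of 19 neuronal and cytoskeletal clients 9 passed, 2 with positive and 7 with negative differences (22.2% positive, beside 48.9% of all tested genes). None of the 9 had an unadjusted limma p under 0.05. Ctnnb1, which encodes beta-catenin of cell contacts and Wnt signalling, had 15.3, 42.2 and 18.7 in the NR libraries against 54.8, 17.8 and 60.8 in the Run libraries, with overlapping groups.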

How the data were processed

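The authors deposited FPKM values for 6 libraries in 1 table of gene symbols. Trimmomatic 0.39, STAR 2.7.5c, StringTie 2.1.7 and the mm10 build are listed in the submitters' processing notes. The role of each tool and the annotation are not given in the sources used here. Values were tested as log2(FPKM + 1), with no further scaling, for the 6155 genes that reached FPKM 1 in 3 or more libraries. A 2-sided test by limma 3.58.1 (R 4.3.3) used a trended prior variance, and p-values were adjusted over all tested genes by the Benjamini-Hochberg method, with a threshold of 0.05. The fit was run on simulated data with normal noise and planted changes, to check that the mean estimate was near the planted change. That check does not show how the fit performs on values with many zeros. Gene models, transcripts and coordinates came from GENCODE M21 (mm10). Coding sequences were compared by MAFFT alignment and by shared stretches of 50 bases, and promoters came from RefSeq. Tables and plots used Python 3.11.15.

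The members and the gene lists were chosen with earlier results of these data known. The text names the 7 members, other rows named after the family, the pseudogenes that share their sequence (chosen after their values were seen), the 2 tested genes with the smallest unadjusted p in each partner group, and the genes nearest in pattern. Some genes that this rule names are not reported here. Alternatives covered the pseudocount, the filter, 3 scalings, the trend, the replicate block and each library left out. The labels put all libraries in 1 batch, and no pair of libraries shared their values.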

Additional observations from a re-analysis of the deposited data

How the results depend on the processing

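No 14-3-3 gene passed the adjusted threshold of limma under any alternative computed, and the count over all genes was 0 in each, with limma adjusted p-values of the members between 0.771 and 1. Ywhaz and Ywhaq had negative differences in all 16 of their alternatives. The sign of Ywhae, whose difference was near 0, changed to -0.0203 after quantile normalization and to -0.0256 after rescaling without mitochondrial genes and ribosomal RNA. With each library left out in turn, the log2 difference ranged from -0.13 to 0.19 for Ywhae, from -0.40 to 1.03 for Ywhah, from -0.32 to 2.81 for Ywhab and from -1.06 to 0.11 for Ywhag, and that of the family sum from -210.8 to 177.5 FPKM. The family sum differed by -3.41 FPKM after rescaling without mitochondrial genes and ribosomal RNA. Genes at an unadjusted p under 0.05 numbered 304, and 82 of 1751 when FPKM of at least 1 was required in all 6 libraries, where fewer genes were tested and Ywhab was not. Without NR replicate 2 the higher genes were 227 in place of 151. With the replicate block there were 251 such genes and 0 past the adjusted threshold. The deviations of libraries of the same number had r of 0.0211, 0.00416 and 0.0179 over genes. Those of libraries of different numbers had r from -0.019 to 0.000502. Values this near 0 cannot settle whether libraries of the same number were paired. Adding the pseudogene rows, chosen after seeing the data, kept each direction. The test of levels between members cannot pass with 5 libraries, where its smallest p is 0.0625, and was not run with a library left out. Depth is unknown, so no counting error can be given.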
